A study of Mus musculus with 20 samples.

Results

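The amyloid precursor protein App belongs to a family of 3 related membrane proteins, App, Aplp1 and Aplp2. Its levels, and those of genes whose products cut or bind it, were examined in the axonal and the somatodendritic compartment of cultured mouse motoneurons with and without depletion of Tdp-43. The set held 8 of the 39174 genes in the deposited files. Their rows were taken by gene symbol: the family members App, Aplp1 and Aplp2, the secretase genes Bace1, Psen2, Ncstn and Adam10, and the adaptor gene Apbb1. All 8 had an FPKM value (fragment counts scaled by exon length and by the number of mapped fragments of the library) in each of the 20 libraries, and all 8 passed the filter on low values in every comparison.

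Primary motoneurons were prepared from the spinal cord of CD-1 mouse embryos, enriched on dishes coated with an antibody against p75 and grown in microfluidic chambers, in which axons cross into a compartment of their own. Control cultures carried an empty lentiviral expression vector, and knockdown cultures carried the same kind of vector with a short hairpin RNA against Tdp-43. The control vector held no hairpin, and 1 hairpin sequence was used. RNA was pre-amplified before sequencing, and each condition gave 1 axonal and 1 somatodendritic group: 4 axonal control, 6 axonal knockdown, 4 somatodendritic control and 6 somatodendritic knockdown libraries. The labels do not say whether the libraries of a group came from separate cultures, so p-values measure only the spread between these libraries.

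App is carried along axons by fast transport and is cut in successive steps. Adam10 acts as an alpha-secretase and Bace1 as the beta-secretase, and each releases the ectodomain of App. The remaining stub is cut within the membrane by gamma-secretase, a complex in which Psen2 can serve as the catalytic subunit and Ncstn (nicastrin) binds the substrate. Bace1 cleavage followed by gamma-secretase yields amyloid beta peptides, which Aplp1 and Aplp2 do not contain. Apbb1 (Fe65) is a cytoplasmic adaptor that binds the tail of all 3 family members. Tdp-43 (gene symbol Tardbp) is an RNA-binding protein that prefers stretches rich in UG.

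The adaptor binds around a short NPTY motif in the tail, and the stretch of coding sequence that holds it is shown for the 3 family members because the family genes and Apbb1 are compared throughout. The 30-base windows come from the last exon of each gene's main coding transcript in GENCODE M21 (GRCm38, minus strand in all 3), at chr16:84955349-84955378 for App, chr7:30435308-30435337 for Aplp1 and chr9:31150889-31150918 for Aplp2. Capitals mark the 4 codons of the motif.
App: ggatatgagAATCCAACTTACaagttcttt
Aplp1: ggctatgagAACCCCACCTACcgcttcctg
Aplp2: ggttatgaaAACCCAACCTACaaatacctg

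Each coding sequence held the motif codons 1 time, with 8 codons between them and the stop codon in App and Aplp2 and 7 in Aplp1. App and Aplp1 shared 21 of the 30 bases, App and Aplp2 22, and Aplp1 and Aplp2 23. The longest run of identical bases between 2 complete coding sequences was 13 for App and Aplp1, 14 for Aplp1 and Aplp2 and 24 for App and Aplp2. No member overlapped another gene on its own strand.

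A different sequence was searched because of the depleted protein. TGTGTG, on the sense strand and with overlapping matches counted, was present in the main coding transcripts of 5 of the 8 members, and in 74.0% of the 11950 transcripts of genes whose mean reached 1 FPKM. Bace1 stood out with 33 matches in 6058 bases, or 5.45 per kilobase, more than in 98.5% of those transcripts, where the median was 0.518 per kilobase. All 33 lay after the stop codon, where a single GT repeat ran for 67 bases. The 30 bases of it at chr9:45862932-45862961, on the plus strand, are shown beside the longest such run in Ncstn, which is coding and lies at chr1:172067463-172067492 on the minus strand. Capitals mark the repeat.
Bace1: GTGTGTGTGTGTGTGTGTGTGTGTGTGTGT
Ncstn: aggctcccacaGTGTGTGcgctccacagtg

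Aplp2 held 4 matches, Ncstn 3, Psen2 2 and Apbb1 1, while App, Aplp1 and Adam10 held none. These letters describe the spliced transcripts only. Binding was not measured, and introns were not searched.

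In GRCm38 App (ENSMUSG00000022892) spans chr16:84949685-85173766, Aplp1 (ENSMUSG00000006651) chr7:30434982-30445535 and Aplp2 (ENSMUSG00000031996) chr9:31149557-31211815. Among the secretase genes, Bace1 (ENSMUSG00000032086) lies at chr9:45838580-45864399, Psen2 (ENSMUSG00000010609) at chr1:180227004-180263438, Ncstn (ENSMUSG00000003458) at chr1:172066013-172082795 and Adam10 (ENSMUSG00000054693) at chr9:70678997-70780229. Apbb1 (ENSMUSG00000037032) spans chr7:105558483-105581653. Bace1 and Adam10 are on the plus strand and the other 6 on the minus strand. The exons of App share 113 of 12996 bases with the antisense gene Gm49227, those of Ncstn share 195 of 3975 bases with Copa, a coat protein gene, and those of Bace1 share 975 of 6348 with Rnf214, 951 with Gm49338 and 135 with the antisense gene Gm16536, all on the opposite strand. Gm49227 and Gm49338 were not analysed here. The sources used here do not say whether fragments were counted by strand, so reads in these shared stretches cannot be told apart.

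The libraries differed in ways that touch these genes. Relative depth, estimated from the width of the deposited confidence intervals and set to 1 for the deepest library, lay between 0.35 and 0.369 in axonal control, 0.593 and 1 in somatodendritic control, 0.092 and 0.919 in axonal knockdown and 0.148 and 0.831 in somatodendritic knockdown. Tardbp itself was at 19.0 to 30.8 FPKM in somatodendritic control and 0 to 8.54 in somatodendritic knockdown, without overlap. In the axonal compartment it was at 13.4 to 32.3 FPKM in control and 1.21 to 33.2 in knockdown. The library labelled axonal knockdown 1 held 33.2 FPKM, above every control, and libraries 4 and 5, at 13.1 and 13.98 FPKM, lay next to the lowest control. Axonal knockdown libraries 3 and 4 resembled the somatodendritic knockdown libraries (Pearson r over 8839 genes of 0.826 and 0.718) more than the other axonal knockdown libraries (0.792 and 0.655). The other 8 axonal libraries showed the opposite order.

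The motoneuron markers Mnx1, Isl2 and Chat were listed at 0 in all 20 libraries, and the 7 motoneuron markers in the files summed to at most 15.96 FPKM in any library. The 8 pan-neuronal markers summed to 638 to 918 FPKM in axonal control, 771 to 2248 in axonal knockdown and 2373 to 3422 in the somatodendritic groups. The 8 fibroblast and meningeal markers summed to 125 to 534 FPKM in axonal control (median 267), 89.8 to 687 in axonal knockdown (median 510) and 15.4 to 60.5 in the somatodendritic groups. The part of such cells in the member levels was not tested. In these bulk libraries fewer cells of a type and less RNA per cell cannot be told apart.

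App was the most abundant member in all 4 groups. It measured 148 ± 12.1 FPKM (SD, n = 4) in axonal control, 299 ± 137 (n = 6) in axonal knockdown, 306 ± 19.3 (n = 4) in somatodendritic control and 515 ± 96.0 (n = 6) in somatodendritic knockdown. By mean FPKM it ranked 64th of 11876 protein-coding genes whose mean reached 1 FPKM in somatodendritic control and 100th of 11488 in axonal control. FPKM is scaled by length, so members can be compared with each other on it. In somatodendritic control Aplp1 followed at 167 ± 8.11 FPKM, Aplp2 at 113 ± 9.80 and Apbb1 at 55.7 ± 3.87 (n = 4 each), and the ranges of these neighbours did not overlap. Ncstn (20.0 ± 1.82), Bace1 (18.2 ± 2.76) and Adam10 (13.7 ± 2.16) came next, with ranges that overlapped between Ncstn and Bace1 and between Bace1 and Adam10. Psen2 was lowest at 5.16 ± 3.57 FPKM.

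In axonal control the order differed. Aplp2 stood above Aplp1 (80.4 ± 10.3 against 49.5 ± 21.5 FPKM, ranges overlapping), and Apbb1, at 17.3 ± 9.65 FPKM, lay among the secretase genes Ncstn (17.5 ± 3.28), Adam10 (12.7 ± 4.81) and Bace1 (12.5 ± 4.95), with overlapping ranges. In axonal knockdown every pair of neighbours in the order overlapped.

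The deposited 95% interval of FPKM stayed above 0 in all 20 libraries for App, Aplp1 and Aplp2, and the distance from value to interval bound had a median of 8.74% of the value for App in somatodendritic control and 14.5% in axonal control. It reached 0 in 1 library for Apbb1, 2 for Ncstn, 8 for Adam10, 15 for Bace1 and all 20 for Psen2, which was listed at 0 in 3 libraries. Differences in Psen2 and, in most libraries, Bace1 were therefore not resolvable at this depth within a single library.

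**Figure D1:**
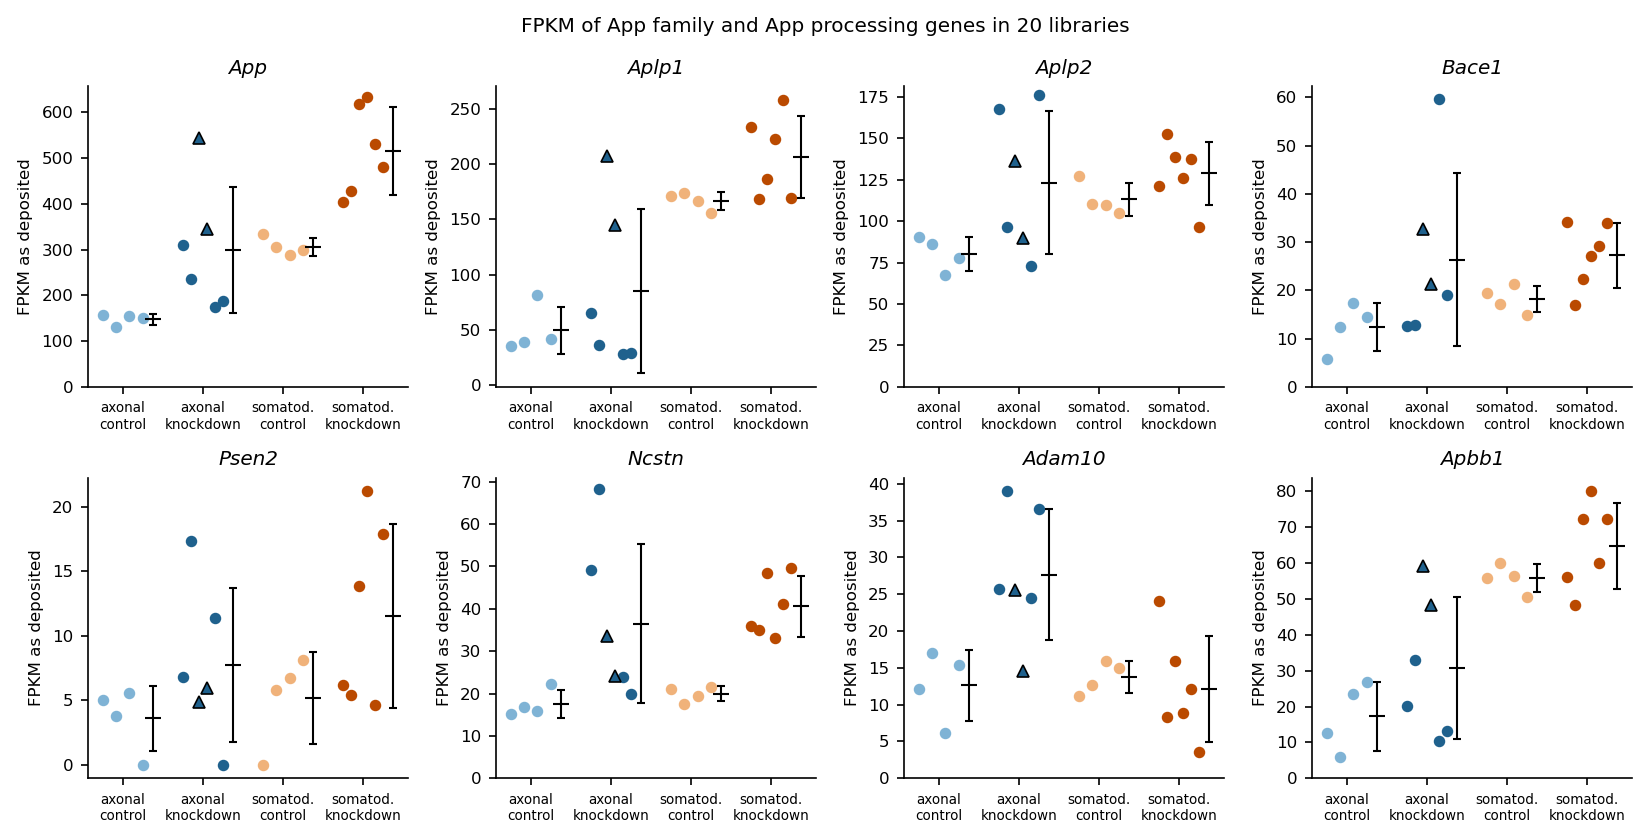
FPKM as deposited (vertical axes) of the 8 genes in each library, by group; points are libraries, triangles are axonal knockdown libraries 3 and 4, and the black bars give mean and SD. App lies at 130 to 156 in axonal control and 403 to 632 in somatodendritic knockdown, and the triangles are the highest axonal libraries for App, Aplp1 and Apbb1.

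The first comparison asked which of these transcripts differ in level between the axonal and the somatodendritic compartment of control motoneurons. Aplp1 was lower in axons and was the only member past the adjusted threshold. Its level was 35.7, 39.1, 81.6 and 41.6 FPKM in the 4 axonal libraries and 172, 174, 167 and 155 in the 4 somatodendritic libraries, so that the groups did not overlap. For the fits each library was divided by the median of its ratios to the geometric mean, over genes at 1 FPKM or more in every library. On the log2(scaled FPKM + 1) scale the axonal level fell by 1.24 relative to the somatodendritic level (SE 0.278, adjusted p = 0.026, limma with Benjamini-Hochberg adjustment over 13760 genes). Of all genes tested in this comparison 6.74% passed, and 2.56% passed as lower in axons. The adjusted p of Aplp1 ranged from 0.00235 to 0.131 over 17 alternative settings and passed in 10 of them. With single libraries left out it passed in only 2 of 8 fits, those without axonal control replicate 3 or 4, and reached 0.0859 in the others.

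Apbb1 and App pointed the same way without passing. Apbb1 measured 12.8, 5.99, 23.5 and 26.9 FPKM in axonal control and 55.8, 60.0, 56.5 and 50.7 in somatodendritic control, without overlap. Its log2 difference was -1.27 (SE 0.406, adjusted p = 0.090 by limma). App measured 156, 130, 154 and 151 FPKM against 333, 305, 287 and 299, again without overlap, with a log2 difference of -0.46 (SE 0.165, adjusted p = 0.125). These 3 genes had an unadjusted p under 0.05, as did 22.8% of all genes and 10.7% as lower in axons. The exact two-sided permutation test over libraries gave p = 0.0286 for each of the 3, which is the smallest that 4 against 4 libraries allow. It gave the same p for 2 other members, each on 1 scale: Aplp2 as deposited, at 71.0% of its somatodendritic level without overlap, and Ncstn after scaling, higher in axons. As deposited, 19% of all genes tested were lower in every axonal control library than in any somatodendritic one.

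The scale mattered for this comparison. As deposited, the median log2 difference over all genes was -0.48, and scaling moved it to -0.02. All 8 members had a lower mean FPKM in axonal than in somatodendritic control before scaling, from 29.6% of the somatodendritic mean for Aplp1 to 92.3% for Adam10. After scaling, Aplp1 stood at 45.2%, Apbb1 at 46.6% and App at 72.7%, whereas Aplp2 (107%), Bace1 (103%), Psen2 (109%), Ncstn (132%) and Adam10 (137%) had higher means in axons. With FPKM as deposited App had a log2 difference of -1.05 (adjusted p = 0.00327), Apbb1 of -1.82 (adjusted p = 0.0126) and Aplp1 of -1.82 (adjusted p = 0.00235). Over the 17 alternatives the adjusted p of App ranged from 0.00327 to 0.343 and that of Apbb1 from 0.0126 to 0.210.

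No secretase gene passed between the compartments in control cultures by limma with all libraries, adjusted or unadjusted. Ncstn, with 15.1, 16.7, 15.9 and 22.3 FPKM in axons and 21.1, 17.6, 19.5 and 21.6 in somata, had a log2 difference of 0.37 (95% interval -0.16 to 0.90). As deposited its groups overlapped, and after scaling all 4 axonal values lay above the somatodendritic ones, as for 8.31% of all genes. Adam10, with 12.1, 17.01, 6.10 and 15.4 FPKM against 11.2, 12.7, 15.99 and 14.9, also gave 0.37 (-0.37 to 1.10). This value rested on single libraries, at 0.63 without axonal control replicate 3 (the 1 such fit with an unadjusted p under 0.05) and 0.21 without replicate 2. The intervals were -0.82 to 0.74 for Bace1 and -1.82 to 1.95 for Psen2. That of Aplp2 was -0.31 to 0.49, around a difference of 0.09. The interval of Aplp1, -1.85 to -0.62, lay wholly below that of Aplp2, and the difference between the genes was not tested.

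In knockdown cultures none of the 8 passed the same comparison (1.42% of all genes did, 199 of 14021). Unadjusted p was under 0.05 for 3 members lower in axons and 1 higher, against 8.64% and 8.02% of all genes. Aplp1 ranged from 27.8 to 207 FPKM in axonal knockdown, with a median of 51.0, and from 169 to 258 in somatodendritic knockdown, with a median of 205. Its log2 difference was -1.44 (SE 0.387, adjusted p = 0.076, limma). Apbb1, at 10.5 to 59.3 FPKM (median 26.5) against 48.2 to 80.1 (median 66.1), had a log2 difference of -1.04 (SE 0.371, adjusted p = 0.166). App, at 174 to 544 FPKM (median 272) against 403 to 632 (median 505), had one of -0.62 (SE 0.232, adjusted p = 0.185). The groups overlapped for each of the 3.

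Adam10 was the only member with a higher axonal level at an unadjusted p under 0.05. It measured 25.7, 39.1, 25.6, 14.6, 24.5 and 36.6 FPKM in axonal knockdown libraries 1 to 6 and 24.03, 8.28, 15.97, 8.86, 12.1 and 3.54 in the somatodendritic ones. Of the 6 axonal libraries 5 were above every somatodendritic library, and library 4 was the exception. The log2 difference was 1.48 (SE 0.416, adjusted p = 0.086, limma), and the exact two-sided permutation test of FPKM as deposited gave p = 0.00866. In the somatodendritic knockdown libraries the Adam10 interval reached 0 in 4 of 6. Over 23 alternatives its adjusted p ranged from 0.0213 to 0.171.

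Several values differed with axonal knockdown libraries 3 and 4, which resembled somatodendritic libraries. In them App was at 544 and 344 FPKM against 174 to 309 in the other 4, Aplp1 at 207 and 145 against 27.8 to 65.5, and Apbb1 at 59.3 and 48.4 against 10.5 to 32.8. The summed pan-neuronal markers were at 2248 and 1893 FPKM in these 2 libraries and at 771 to 919 in the other 4, and the summed fibroblast and meningeal markers at 219 and 89.8 against 489 to 687. Leaving out library 3 or 4 alone brought Aplp1 past the threshold, and leaving out library 4 alone brought Adam10 past it. Over all genes, higher and lower calls were 134 and 65 with all libraries. They were 225 and 178 without library 3, and 274 and 182 without library 4. With both left out, a setting chosen after the data were seen, the log2 difference was -2.10 for Aplp1, -0.88 for App, -1.50 for Apbb1 and 1.76 for Adam10. Because these 2 were set aside for resembling somatodendritic libraries, removing either or both enlarges compartment differences by construction. The passes and values are therefore given as a description and not as a test. Calls over all genes rose from 1.42% to 7.83% without both libraries. Without the library labelled axonal knockdown 1, whose Tardbp level was not lowered, the differences were -1.41 for Aplp1, -0.61 for App, -0.93 for Apbb1 and 1.53 for Adam10, with adjusted p between 0.119 and 0.260.

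**Figure D2:**
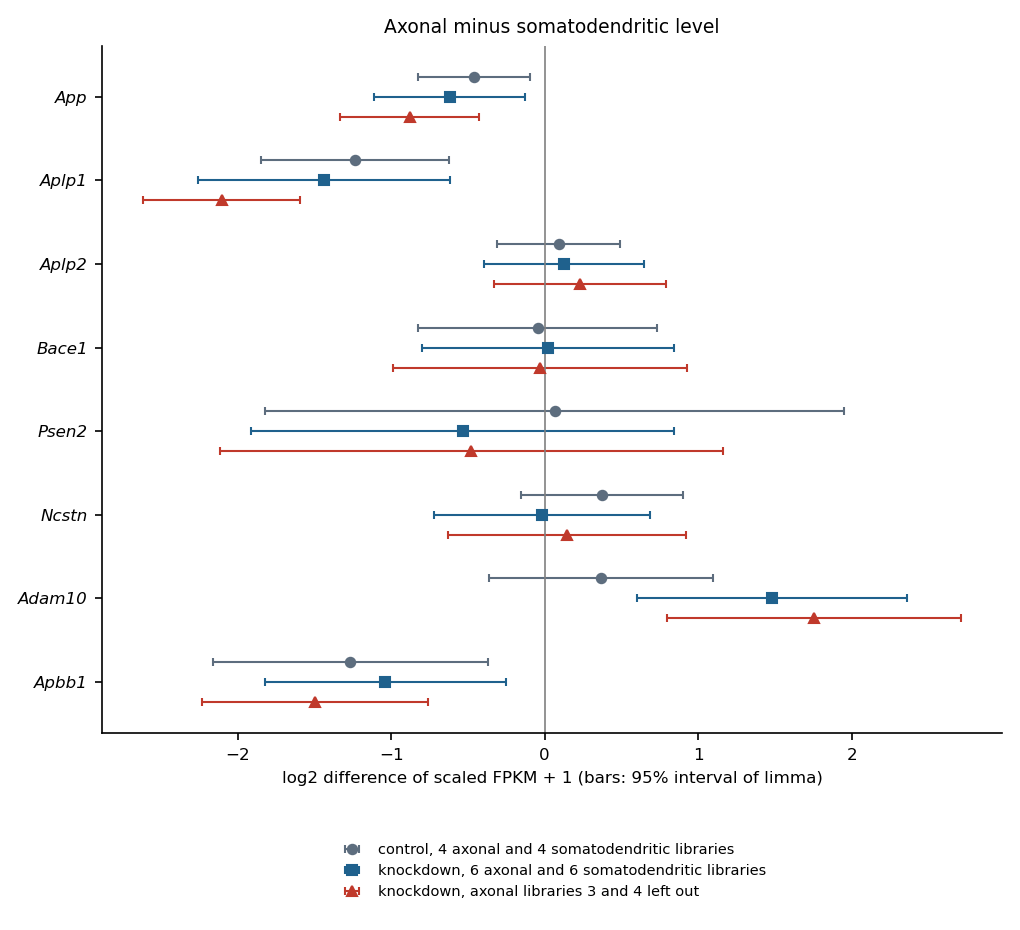
Axonal minus somatodendritic log2 difference of each gene (horizontal axis, scaled FPKM + 1; bars are 95% intervals of limma) in control, in knockdown and in knockdown with axonal libraries 3 and 4 left out. With all libraries the differences of Aplp1, Apbb1 and App lie between -0.46 (App, control) and -1.44 (Aplp1, knockdown) and those of Adam10 are 0.37 and 1.48; the setting without the 2 libraries is drawn as a description.

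**Figure D3:**
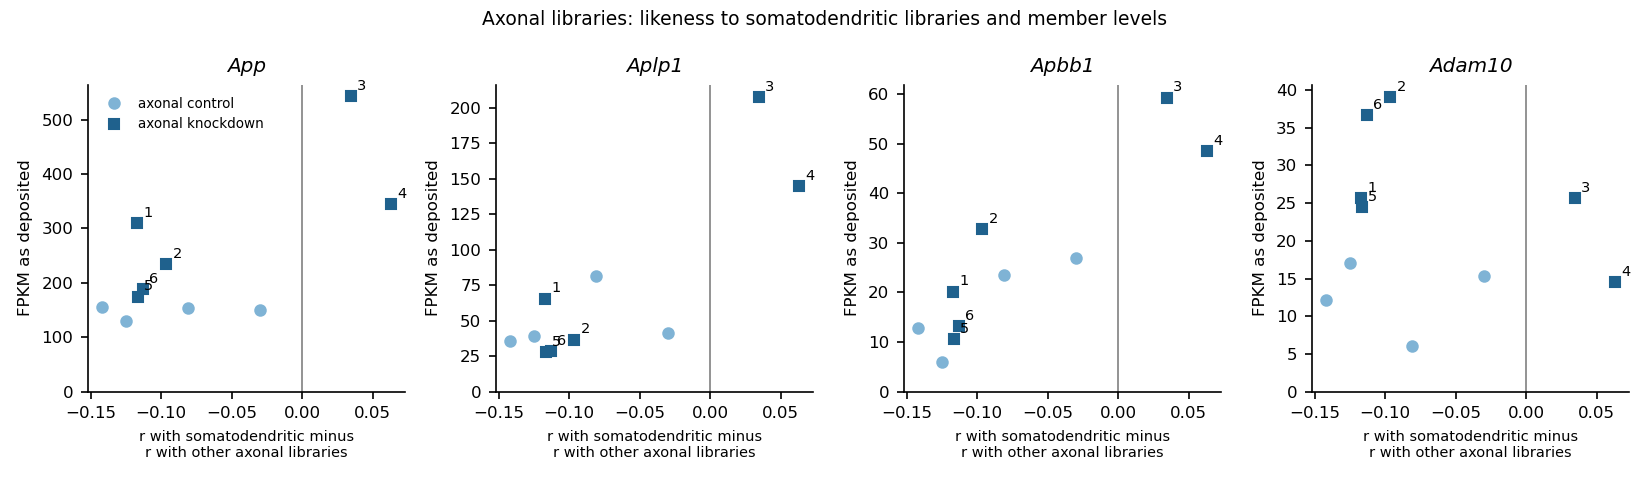
FPKM of 4 genes (vertical axes) in the 10 axonal libraries against the correlation of each library with the somatodendritic libraries minus that with the other axonal libraries of its condition (horizontal axis; numbers are axonal knockdown libraries). Libraries 3 and 4, at 0.035 and 0.063, are the only ones right of 0 and hold the highest App, Aplp1 and Apbb1 values, while library 4 holds the lowest knockdown value of Adam10.

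The next comparison asked whether depletion of Tdp-43 changed these transcripts in the somatodendritic compartment. No member passed the adjusted threshold, as 0.974% of all genes did (134 of 13762). App and Ncstn came closest and were the 2 members with an unadjusted p under 0.05, both higher in knockdown, against 4.59% of all genes in that direction. For both, every knockdown library lay above every control library.

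App measured 333, 305, 287 and 299 FPKM in somatodendritic control and 403, 428, 619, 632, 530 and 480 in somatodendritic knockdown. Mean App in knockdown thus stood at 168% of control as deposited and at 145% after scaling. The log2 difference was 0.52 (SE 0.144, p = 0.0035 unadjusted, adjusted p = 0.117, limma), and the exact two-sided permutation test gave p = 0.00952 as deposited and p = 0.0143 after scaling. On group medians in place of means the exact permutation test gave p = 0.0619. Over 21 alternatives the difference stayed between 0.46 and 0.73 and its unadjusted p under 0.05, while the adjusted p ranged from 0.0258 to 0.562. As deposited, 4.24% of all genes were higher in every knockdown library than in any control library, and after scaling 1.9%.

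Ncstn, the substrate-binding subunit of gamma-secretase, measured 21.1, 17.6, 19.5 and 21.6 FPKM in somatodendritic control and 36.02, 34.96, 48.4, 33.1, 41.2 and 49.7 in somatodendritic knockdown. Its mean was 203% of the control mean as deposited and 177% after scaling, with a log2 difference of 0.77 (SE 0.196, adjusted p = 0.091). The exact two-sided permutation test gave p = 0.00476 as deposited, the smallest that 4 against 6 libraries allow, and p = 0.0143 after scaling. Over 21 alternatives the difference lay between 0.67 and 0.97, with an adjusted p from 0.0241 to 0.501. Copa, which shares exon bases with it on the other strand, had a log2 difference of 0.25 (adjusted p = 0.534).

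Both genes passed without library scaling. With FPKM as deposited App had a log2 difference of 0.73 (adjusted p = 0.0258) and Ncstn one of 0.97 (adjusted p = 0.0241). Scaling moved the median difference of all genes from 0.04 to -0.13. With library weights, which give less influence to variable libraries, Ncstn had an adjusted p of 0.0434 and App one of 0.0516.

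The other 6 members gave no call. Psen2 had the widest interval, with a log2 difference of 1.05 (95% interval -0.37 to 2.47), from 0 to 8.11 FPKM in control and 4.63 to 21.2 in knockdown. Without somatodendritic control replicate 1, where it was listed at 0, the difference was 0.29. Bace1, with the long GT repeat, measured 19.5, 17.2, 21.3 and 14.9 FPKM in control and 17.1 to 34.2, with a median of 28.2, in knockdown. Its log2 difference was 0.33 (95% interval -0.18 to 0.84), and 5 of 6 knockdown libraries lay above every control library as deposited. Its opposite-strand neighbours Rnf214 and Gm16536 had log2 differences of -0.38 (adjusted p = 0.632, limma) and -0.17 (adjusted p = 0.799). Adam10 had a difference of -0.54 (-1.39 to 0.31), with 3 of 6 knockdown libraries below every control library. It was -0.28 without somatodendritic knockdown replicate 6, a shallow library with Adam10 at 3.54 FPKM. Differences were near 0 for Aplp1 (0.08, interval -0.21 to 0.36), Aplp2 (-0.04, -0.34 to 0.27) and Apbb1 (-0.01, -0.40 to 0.37). Of these, the signs of Aplp2 and Apbb1 turn positive without scaling. Tardbp, the targeted gene, fell by 3.06 on the log2 scale (SE 0.565, adjusted p = 0.0228).

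In axons the question was the same. No member passed, adjusted or unadjusted, by limma, where 0.401% and 8.6% of all genes did. Tardbp had a log2 difference of -1.71 (SE 0.628, adjusted p = 0.427). App measured 156, 130, 154 and 151 FPKM in axonal control and 309, 235, 544, 344, 174 and 188 in axonal knockdown, libraries 1 to 6, so that as deposited the groups did not overlap, which 2.52% of all genes showed in this direction. After scaling they did overlap, and 4 of 6 knockdown libraries were above every control library. The log2 difference was 0.38 (SE 0.307, adjusted p = 0.757, limma), and 0.12 with libraries 3 and 4 left out (adjusted p = 0.916). As deposited it was 0.90 (adjusted p = 0.378), but the median of all genes then stood at 0.23, against -0.17 after scaling. Without the library labelled axonal knockdown 1 it was 0.40.

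Adam10 had the largest axonal difference among the members, 0.60 (SE 0.441, adjusted p = 0.739), at 6.10 to 17.01 FPKM in control and 14.6 to 39.1 in knockdown. As deposited it was 1.09 (unadjusted p = 0.0271, adjusted p = 0.413 by limma), with 5 of 6 knockdown libraries above every control library, and after scaling it was 0.34 without axonal control replicate 3. The values of Aplp1 and Apbb1 moved with libraries 3 and 4, and that of Apbb1 changed sign. The difference of Aplp1 was -0.10 (95% interval -1.20 to 0.99) with all libraries and -0.77 (-1.64 to 0.10) without these 2. That of Apbb1 was 0.23 (-0.93 to 1.39) with them and -0.22 (-1.43 to 0.99) without. Ncstn gave 0.39 (-0.50 to 1.28), at 15.1 to 22.3 FPKM in control and 19.8 to 68.3 in knockdown, Bace1 0.41 (-0.67 to 1.49), Psen2 0.41 (-1.33 to 2.15) and Aplp2 0.02 (-0.67 to 0.71). Both Ncstn and Bace1 were at 0.90 as deposited, and they fell to 0.15 without axonal knockdown replicate 2 and 0.10 without axonal control replicate 1, respectively. The axonal intervals of App (-0.27 to 1.03) and Ncstn hold the somatodendritic differences of both genes.

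**Figure D4:**
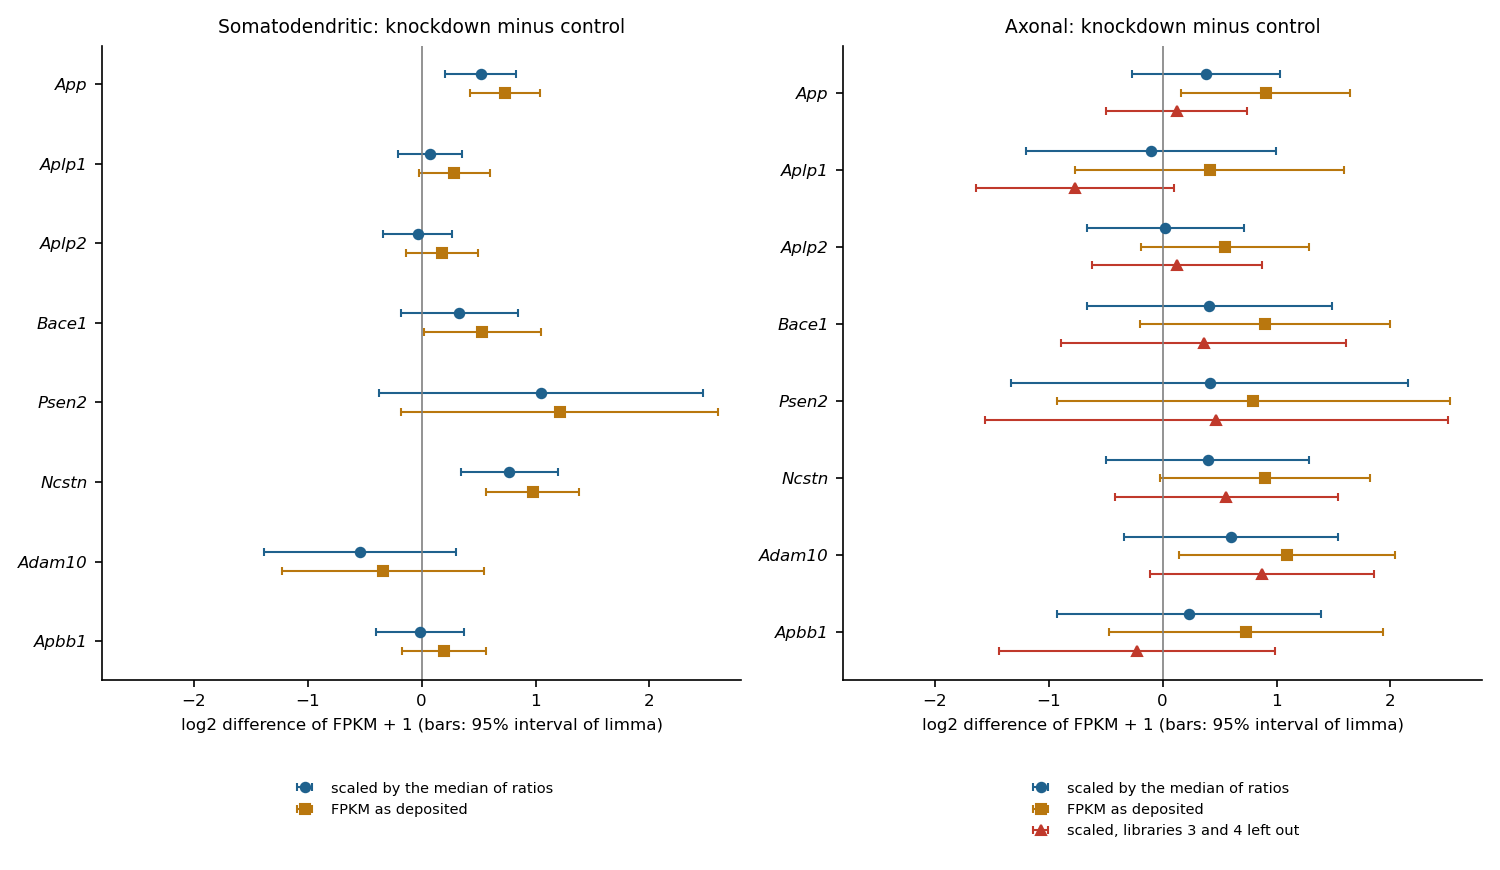
Knockdown minus control log2 difference of each gene (horizontal axes, FPKM + 1; bars are 95% intervals of limma) in the somatodendritic (left) and axonal (right) compartment, scaled and as deposited, with axonal libraries 3 and 4 left out also shown on the right. In the somatodendritic compartment the scaled intervals of App, around 0.52, and Ncstn, around 0.77, exclude 0, while all scaled axonal intervals include it.

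Whether the knockdown difference itself differed between compartments was tested with an interaction term, in which 0.0711% of all genes passed and none of the members did. Unadjusted, 5.52% of all genes and again no member passed. The axonal minus somatodendritic difference of the knockdown effect was -0.14 for App (SE 0.315, adjusted p = 0.985) and -0.37 for Ncstn (SE 0.443, adjusted p = 0.970). With 1 library left out they lay between -0.26 and -0.013 for App, at these ends without axonal knockdown replicates 3 and 5, and between -0.62 and -0.26 for Ncstn, at the lower end without axonal knockdown replicate 2. Adam10 had the largest, 1.14 (SE 0.581, adjusted p = 0.924 by limma).

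Ratios between members do not depend on library scaling and were used as a description, with no test. In somatodendritic control App made up 50.9% to 53.4% of the summed FPKM of the 3 family members. In somatodendritic knockdown it made up 53.2% to 65.5%, with a median of 60.8%. Library 1 was the lowest there, at 53.2%, just inside the control range. The family sum was 586 ± 33.1 FPKM (SD, n = 4) in somatodendritic control and 851 ± 111 (n = 6) in knockdown, while the share of Aplp2 was 18.7% to 20.2% in control and 12.8% to 20.4% in knockdown.

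The axonal libraries differed from the somatodendritic ones mainly in the balance of Aplp1 and Aplp2. Aplp1 held 12.6%, 15.3%, 26.9% and 15.4% of the family sum in axonal control and 27.2% to 29.6% in somatodendritic control. Aplp2 held 32.0%, 33.8%, 22.2% and 28.8% in axonal control and 18.7% to 20.2% in somatodendritic control. App held 50.9% to 55.8% in axonal control, a range that overlapped the somatodendritic one. Axonal knockdown libraries 3 and 4 had an Aplp1 share of 23.4% and 24.995% and an Aplp2 share of 15.4% and 15.5%, values within the somatodendritic knockdown ranges. The other 4 axonal knockdown libraries had Aplp1 shares of 7.33% to 12.1% and Aplp2 shares of 26.2% to 44.8%.

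**Figure D5:**
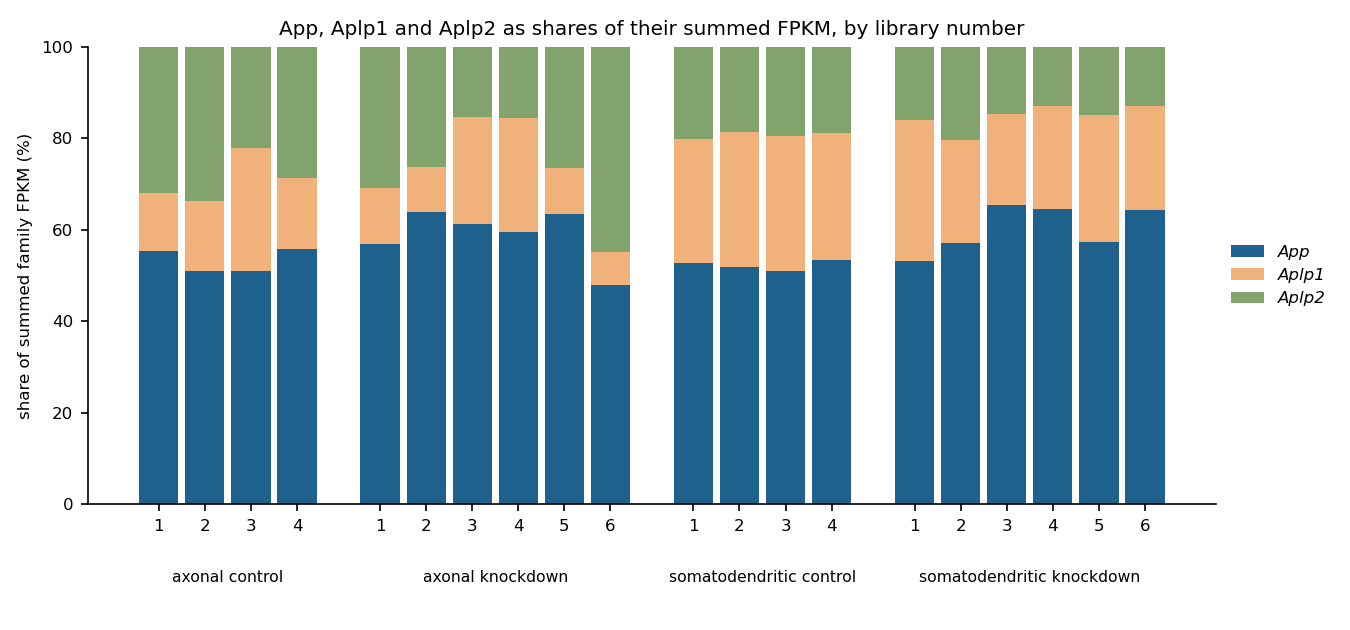
Shares of App, Aplp1 and Aplp2 in their summed FPKM (vertical axis, percent) in each of the 20 libraries, by group and library number. App takes 50.9% to 53.4% in somatodendritic control and up to 65.5% in somatodendritic knockdown, and axonal knockdown libraries 3 and 4 have the narrow Aplp2 share of the somatodendritic libraries.

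The ratio of the alpha-secretase gene Adam10 to the beta-secretase gene Bace1 was 0.767 ± 0.176 (SD, n = 4) in somatodendritic control and 0.459 ± 0.234 (n = 6) in somatodendritic knockdown. It was 1.23 ± 0.733 (n = 4) in axonal control and 1.48 ± 1.03 (n = 6) in axonal knockdown. The axonal ranges, 0.351 to 2.12 and 0.411 to 3.05, overlapped the somatodendritic ones, and the somatodendritic ranges, 0.576 to 1.002 in control and 0.104 to 0.718 in knockdown, overlapped each other. Bace1 was poorly resolved in both compartments. Its intervals reached 0 in 4 of 4 axonal control, 5 of 6 axonal knockdown, 2 of 4 somatodendritic control and 4 of 6 somatodendritic knockdown libraries. Those of Adam10 reached 0 in 2 of 4, 2 of 6, 0 of 4 and 4 of 6 libraries, in the same order.

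The pathway was widened to 60 further genes in 4 lists. Of 59 tested in the somatodendritic knockdown comparison none passed the adjusted threshold, and 4 were higher and 3 lower at an unadjusted p under 0.05, beside 4.59% and 9.22% of all genes. The other secretase genes (10 genes, among them the gamma-secretase subunit gene Psenen and the Bace1 relative Bace2) gave 0 unadjusted calls, with a median log2 difference of -0.23 against -0.13 over all genes. The genes for amyloid beta breakdown and carriers (9 tested) also gave 0.

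The 7 unadjusted genes were adaptors and transport genes, and none of them is a call. Higher in somatodendritic knockdown were Sort1, a sorting receptor (26.2 ± 8.56 to 48.7 ± 10.5 FPKM, log2 difference 0.69, adjusted p = 0.195), and Gga3, a Golgi sorting adaptor (21.2 ± 11.5 to 38.8 ± 5.18, log2 difference 0.77, adjusted p = 0.269). Snx27, a sorting nexin of the retromer pathway, gave 0.57 (adjusted p = 0.299), and Mapk8ip2, a scaffold that links cargo to kinesin, 0.50 (adjusted p = 0.221). Lower were Rtn4, the reticulon gene also known as Nogo (113 ± 21.5 to 82.5 ± 5.03 FPKM, log2 difference -0.65, adjusted p = 0.0523), Vps35, a core subunit of retromer (-0.73, adjusted p = 0.232), and Tmed2, a cargo receptor of the early secretory pathway (-0.48, adjusted p = 0.231). SD values are over 4 control and 6 knockdown libraries.

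In axons 0 of 60 passed, with 1 higher and 2 lower at an unadjusted p under 0.05, beside 2.14% and 6.46% of all genes, so that these counts do not set the lists apart. Kif5c, a kinesin heavy chain expressed in neurons, was at 83.6 ± 51.7 FPKM (n = 4) in axonal control and 270 ± 78.2 (n = 6) in axonal knockdown, with a log2 difference of 1.26 (adjusted p = 0.328). Rtn4 gave -0.95 (adjusted p = 0.416), the sign it had in the somatodendritic compartment. Numb, an endocytic adaptor, gave -1.55 (adjusted p = 0.498) at levels of only 3.42 ± 0.607 and 1.63 ± 2.54 FPKM. In the interaction the single unadjusted gene of the 60, beside 2.84% of all genes in that direction, was the kinesin gene Kif5a, with a difference of 1.14 (adjusted p = 0.869).

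Between compartments 4 of the 60 passed in control (2 higher and 2 lower in axons) and 3 in knockdown (1 higher and 2 lower), beside 6.74% and 1.42% of all genes. Rtn3, a reticulon that binds Bace1, was the only gene of the lists to pass in both conditions. It was at 79.8 ± 25.4 FPKM in axonal and 307 ± 15.1 in somatodendritic control (n = 4 each), and at 134 ± 57.5 and 313 ± 29.2 in knockdown (n = 6 each). It was lower in axons, with a log2 difference of -1.39 (SE 0.202, adjusted p = 0.00396) in control and -1.07 (SE 0.243, adjusted p = 0.0441) in knockdown, where Aplp1 had -1.24 and -1.44.

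The genes most like App in pattern were found by the Pearson correlation of log2(scaled FPKM + 1) over the 20 libraries, among 5743 genes whose mean reached 10 FPKM. They were Clstn1, encoding a calsyntenin that links cargo to kinesin (r = 0.928), the protocadherin gene Pcdh1 (0.911), the homeobox gene Hoxb8 (0.898), the kinase gene Map3k9 (0.895) and Sv2a, encoding a synaptic vesicle protein (0.881). Clstn1 was at 80.9 ± 5.09 FPKM in axonal control, 214 ± 122 in axonal knockdown, 260 ± 34.5 in somatodendritic control and 449 ± 46.0 in somatodendritic knockdown. The libraries share their group structure, so these values are a description. Among the members Apbb1 ranked 74th (r = 0.784) and Aplp1 90th (0.768), while Ncstn (0.234), Bace1 (0.023) and Aplp2 (-0.251) ranked 2051st, 3049th and 4216th. Adam10 was near the other end, at rank 5390 with r = -0.631, and Psen2 was too low to be ranked.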

How the data were processed

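The 20 libraries were read as the FPKM values with 95% intervals that the authors deposited per gene (39174 genes, GRCm38). Per the labels, the submitters' processing notes name FastQC 0.10.1 and Cufflinks 2.2.1; strand handling is not given in the sources used here. Differences were tested with limma 3.58.1 (R 4.3.3; trend, Benjamini-Hochberg adjustment over all genes tested, threshold 0.05) on log2(scaled FPKM + 1), for genes whose mean reached 1 FPKM; this scale understates the fold change of low genes. Scaling factors were medians of ratios, taken over 7619 somatodendritic, 5112 axonal or, between compartments, 4577 genes. Groups came from the labels, which give no batch. No 2 libraries held identical values. Exact permutation tests enumerated every split of the libraries with Python 3.11.15 and numpy 2.4.6. The limma fits were checked on simulated data in which genes above the low range had changes larger than any member difference. That check left out the scaling step, so it does not cover small differences, low genes or scaling. Members and gene lists were chosen with earlier results of these data known. Named were all members, Tardbp, list genes past an adjusted p of 0.05 in a knockdown comparison (unadjusted where none passed) or in both compartment comparisons, and the 5 genes most like App. Alternatives were FPKM as deposited, quantile normalization, other scaling, pseudocounts of 0.1 and 5, other filters, library weights, 1 fit of all libraries, a replicate block and each library left out. A relative depth minimum of 0.2 and leaving out axonal knockdown libraries 3 and 4 were chosen after seeing the data. FPKM intervals cover the counting and assignment error of the authors' estimate only.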

Additional observations from a re-analysis of the deposited data

Results flagged for a closer look

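Of the 32 sets of member values in a group that were screened for a library far from the rest, 1 stood out. Aplp1 in axonal control replicate 3 was at 81.6 FPKM, and the nearest of the other 3 libraries was at 41.6. With 4 libraries a screen of this kind marks about 1 set in 20 by chance. Leaving that library out moved the axonal minus somatodendritic difference of Aplp1 in control from -1.24 to -1.53. The same library had the highest Aplp1 share of the family sum in axonal control, 26.9%, and the lowest Adam10 level, 6.10 FPKM.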

How the results depend on the processing

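With FPKM as deposited, the members past the adjusted threshold were 2 (in place of 0) in the somatodendritic knockdown comparison and 3 (in place of 1) between control compartments, and at an unadjusted p under 0.05 they were 3 (in place of 2, adding Bace1) and 4 (in place of 3, adding Aplp2) in these comparisons, 2 (in place of 0, App and Adam10) in axons and 1 (in place of 0, Adam10) in the interaction. Over all genes, higher and lower calls were 150 and 83 as deposited against 30 and 104 after scaling in the somatodendritic knockdown comparison, 14 and 43 against 2 and 54 in axons, 344 and 1711 against 576 and 352 between control compartments and 73 and 89 against 134 and 65 between knockdown compartments. Quantile normalization gave 2 members between control compartments. Library weights gave 1 member in the somatodendritic knockdown comparison, 2 between control compartments and 1 between knockdown compartments, while the genes called over all rose from 134 to 432, 928 to 1072 and 199 to 417. All 20 libraries in 1 fit gave 0 and 2 in these compartment comparisons. Without axonal knockdown libraries 3 and 4, a choice made after seeing the data, 4 members passed between knockdown compartments (1089 genes over all, against 199) and 2 in the interaction, unadjusted (1099 over all, against 776). Leaving these 2 libraries out enlarges compartment differences by construction, so these counts are a description and not a test. With 1 library left out at a time the members past the adjusted threshold were 0 to 2 in either compartment comparison, and 0 to 1 in the interaction, unadjusted. The cause of these shifts was not tested.

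The genes called over all alternatives other than leaving out 1 library were 18 to 432 (main value 134) for somatodendritic knockdown, 30 to 205 (56) for axonal knockdown, 327 to 2055 (928) and 22 to 1089 (199) between control and knockdown compartments, and 8 to 12 (10) for the interaction.

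The labels do not say whether same-numbered libraries came from the same culture. The 18 correlations of same-numbered libraries, taken on deviations from the group means, lay between -0.06 and 0.09. Values this low show no pairing, but with so few and variable libraries they cannot exclude it, so the block was kept as an alternative. With the replicate block, 18, 35, 442, 22 and 10 genes passed in these comparisons in the same order, and 1 member, in place of 0, had an unadjusted p under 0.05 in axons. Under the block the log2 differences of Aplp2 (0.025 somatodendritic, -0.024 axonal) and Aplp1 (0.38 axonal) in knockdown changed sign.

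Signs also turned for differences near 0. In somatodendritic knockdown Aplp2 was at 0.18 as deposited, 0.015 with quantile normalization, 0.0044 with library weights and 0.031 in libraries of relative depth of at least 0.2, and Apbb1 at 0.20 as deposited. In axonal knockdown Aplp1 was at 0.41 as deposited, 0.035 with weights and 0.11 at that depth, Aplp2 at -0.0060 with scaling over all 20 libraries, Psen2 at -0.10 with weights and Apbb1 at -0.22 without libraries 3 and 4. Between control compartments Aplp2 was at -0.49, Psen2 at -0.33, Ncstn at -0.19 and Adam10 at -0.18 as deposited, and Aplp2 at -0.091 and Psen2 at -0.062 with quantile normalization. Between knockdown compartments Aplp2 was at -0.13 and -0.035 under these settings and Bace1 at -0.23 and -0.096, while Bace1 was at -0.14 with weights, -0.18 at the depth minimum and -0.031 without libraries 3 and 4, and Ncstn at 0.052, 0.14 and 0.15. In the interaction App was at 0.17 and Aplp1 at 0.12 as deposited, Bace1 at -0.040 with weights and -0.12 at the depth minimum, and Apbb1 at -0.21 without libraries 3 and 4. After scaling, percent levels crossed 100 for Aplp2 in somatodendritic knockdown (97.9%), for Aplp2 (107%), Bace1 (103%), Psen2 (109%), Ncstn (132%) and Adam10 (137%) between control compartments and for Aplp2 (114%), Bace1 (117%) and Ncstn (109%) between knockdown compartments.

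With 1 library left out, signs turned within -0.092 to 0.031 for Aplp2 and -0.074 to 0.062 for Apbb1 in somatodendritic knockdown. In axonal knockdown the ranges were -0.37 to 0.19 for Aplp1, -0.12 to 0.15 for Aplp2, -0.29 to 0.91 for Psen2 and -0.19 to 0.48 for Apbb1. Between compartments they were -0.26 to 0.27 for Bace1 and -0.65 to 0.81 for Psen2 in control, and -0.023 to 0.26 for Aplp2, -0.26 to 0.22 for Bace1 and -0.27 to 0.091 for Ncstn in knockdown. In the interaction they were -0.45 to 0.12 for Aplp1, -0.089 to 0.19 for Aplp2, -0.23 to 0.29 for Bace1, -1.34 to 0.12 for Psen2 and -0.17 to 0.49 for Apbb1. Depth limits Psen2, Bace1 and Adam10 most, since their FPKM intervals often reached 0.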
